A study of Mus musculus with 10 samples.

Results

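The genes described here encode the inner plaque of the desmosome and the core of the adherens junction, the 2 kinds of adhesive contact that hold keratinocytes to each other. They are 10 named genes, 5 plaque genes (Dsp, Jup, Pkp1, Pkp2 and Pkp3), the membrane protein gene Perp, the classical cadherins Cdh1 and Cdh3, and the catenins Ctnna1 and Ctnnb1, out of 23282 entries in each deposited table. All 10 were found by symbol. All 10 were also among the 11536 genes that passed the filter on low values (a value of at least 5 in at least 5 libraries), although Pkp2 passed it through all 5 WT and 2 of 5 STAT3cKO libraries. The comparison is between STAT3cKO mice, whose keratinocytes had lost STAT3 by conditional ablation (5 libraries), and WT mice (5 libraries), all C57BL/6 and 5 months old, with whole skin as the tissue. The sources used here name neither the promoter that drove the deletion nor the deleted exons, nor any engineered allele in WT mice. Because no label ties a library to its own animal, p-values describe how far these libraries vary, in which technical variation may have a part. The Lexogen QuantSeq kit used here sequences transcripts near their poly(A) tail, so a gene's reads follow its number of transcripts and not its length.

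In a desmosome, cadherins of the desmoglein and desmocollin kinds bridge the gap between cells. Inside the cell their tails bind plakoglobin and the plakophilins, which bind desmoplakin, and desmoplakin grips the keratin filaments. In an adherens junction, E-cadherin or P-cadherin bridges the gap, beta-catenin binds the tail, and alpha-catenin links beta-catenin to actin. Plakoglobin and beta-catenin are closely related armadillo-repeat proteins, and beta-catenin is also the transcriptional effector of Wnt signalling.

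Most desmosomal genes had larger estimates than the adherens genes, a difference between the sets that was not tested. Dsp, Jup, Pkp1 and Perp had higher means in STAT3cKO skin, by 0.88 to 1.39 on the log2 scale, whereas Cdh1, Ctnna1 and Ctnnb1 had changes between 0.01 and 0.13. Pkp3 (0.49) and Cdh3 (−0.53) had wide intervals on both sides of 0. Pkp2 had the opposite sign, with no read in 3 of 5 STAT3cKO libraries and reads in every WT library. Of the 10 genes 0 passed the test (limma, Benjamini-Hochberg adjusted p under 0.05), against 0.988% of the 11536 genes tested. At an unadjusted p under 0.05, 4 of the 10 were higher, against 4.95% of all tested genes, and 1 was lower, against 5.95%. With read weights, with quantile normalization or without the library WT 4, 2 of the 10 passed, Dsp and Perp. Over all 11536 tested genes these settings called 163, 181 and 207 in turn, against 114 as reported. The difference between Jup and Ctnnb1 within a library did pass its own exact test.

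The DNA before the start sites of 3 genes is shown because only these had an entry in the promoter table used here. They are the plakoglobin gene Jup, the desmoplakin gene Dsp and the beta-catenin gene Ctnnb1. The sequences are the 250 bases before a transcript start in RefSeq (GRCm38.p6, the same assembly as mm10), 5′ to 3′ on the gene's own strand, with each CG dinucleotide in capitals. Of 2 starts listed for Ctnnb1 the earlier is shown, and the promoters of the other 7 genes were not analysed here. The windows are chr11:100397791-100398040 on the minus strand for Jup, chr13:38151044-38151293 on the plus strand for Dsp, and chr9:120933150-120933399 on the plus strand for Ctnnb1.
Jup: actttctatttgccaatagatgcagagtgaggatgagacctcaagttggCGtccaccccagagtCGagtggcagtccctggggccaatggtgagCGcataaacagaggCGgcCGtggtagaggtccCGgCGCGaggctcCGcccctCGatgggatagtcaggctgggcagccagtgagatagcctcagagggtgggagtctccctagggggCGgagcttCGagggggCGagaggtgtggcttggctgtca
Dsp: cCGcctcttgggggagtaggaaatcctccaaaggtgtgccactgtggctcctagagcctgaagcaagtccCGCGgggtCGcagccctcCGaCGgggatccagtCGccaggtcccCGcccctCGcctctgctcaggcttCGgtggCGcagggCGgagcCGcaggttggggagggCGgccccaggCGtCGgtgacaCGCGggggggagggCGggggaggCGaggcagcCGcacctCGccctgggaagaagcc
Ctnnb1: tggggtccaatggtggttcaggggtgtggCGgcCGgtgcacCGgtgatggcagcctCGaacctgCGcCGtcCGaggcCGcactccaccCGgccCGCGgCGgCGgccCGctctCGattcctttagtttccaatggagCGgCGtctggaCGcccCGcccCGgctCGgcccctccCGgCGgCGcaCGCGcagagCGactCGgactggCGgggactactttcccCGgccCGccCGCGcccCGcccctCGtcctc
The window of Jup held 13 CG dinucleotides, that of Dsp 22 and that of Ctnnb1 35, against a median of 6 over 32851 such windows. Fewer CG dinucleotides than in Ctnnb1 were found in 97.0% of all windows, fewer than in Dsp in 85.2% and fewer than in Jup in 68.5%. Neither strand of the 3 windows held the letters TTCNNNGAA (the palindrome that STAT factors can bind, present in 7.02% of all windows), TGANTCA (an AP-1 element, 6.75%) or CAGGTG (an E-box that Snail-type repressors can bind, 17.2%). That says only that these letters are not in these windows.

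The deposited values are on a log2 scale. By the size of a single read in each library, the estimated depth was 7150000 to 18500000 reads, with 2 of the 4 deepest libraries in each group. STAT3cKO 2 had no read of 2617 and WT 3 none of 1273 of the 11536 tested genes, against 83 to 1097 in the other 8 libraries. Keratinocyte markers were present in every library, and Stat3 itself had values of 9.49 to 10.81 in STAT3cKO and 9.08 to 10.29 in WT skin. The level of Stat3 in whole skin checks nothing about the ablation, since cells other than keratinocytes express it and a shortened transcript can still be read at its end.

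Dsp (chromosome 13, 38151294 to 38198577, plus strand of mm10) encodes desmoplakin, the link from the plaque to keratin. Its values were 13.35, 12.82, 13.34, 13.30 and 13.17 in STAT3cKO 1 to 5, against 12.11, 11.86, 12.47, 12.86 and 12.30 in WT 1 to 5. Every STAT3cKO library but STAT3cKO 2 lay above every WT library, and STAT3cKO 2 lay below WT 4 alone, so that the groups overlapped in 1 of 25 comparisons between libraries. The means were 13.20 ± 0.22 in STAT3cKO and 12.32 ± 0.38 in WT skin (SD, n = 5 each), a change of 0.88 (SE 0.25, limma adjusted p = 0.107), or 1.84-fold with a 95% interval of 1.28 to 2.63.

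Jup (chromosome 11, 100368958 to 100397763, minus strand) encodes plakoglobin, the armadillo protein that both kinds of junction use. It had values of 10.95, 9.07, 11.05, 9.63 and 10.18 in STAT3cKO 1 to 5, against 9.14, 8.75, 8.38, 9.46 and 8.21 in WT 1 to 5. STAT3cKO 2 lay among the WT libraries, and the other 4 STAT3cKO libraries lay above all of them. The means were 10.18 ± 0.85 in STAT3cKO and 8.79 ± 0.52 in WT skin (SD, n = 5 each), a change of 1.39 (SE 0.43, limma adjusted p = 0.166), or 2.62-fold with a 95% interval of 1.39 to 4.92. In estimated reads the lowest library of Jup held 383 in STAT3cKO and 196 in WT skin, and the spread between libraries was larger than counting error at these numbers.

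The estimates for the 3 plakophilins did not share a sign. Pkp1 (chromosome 1, 135871395 to 135919207, minus strand), the plakophilin of suprabasal epidermis and the gene of a human skin fragility syndrome, had values of 12.55, 11.80, 12.38, 11.59 and 12.32 in STAT3cKO 1 to 5. In WT 1 to 5 they were 10.90, 9.82, 11.26, 11.55 and 11.28. The lowest STAT3cKO library exceeded the highest WT library, though STAT3cKO 4 and WT 4 were separated by less than 0.1. Such separation with STAT3cKO higher was found for 1.71% of tested genes. The means of Pkp1 were 12.13 ± 0.41 in STAT3cKO and 10.96 ± 0.68 in WT skin (SD, n = 5 each), a change of 1.17 (SE 0.33, limma adjusted p = 0.113), or 2.24-fold with a 95% interval of 1.38 to 3.65.

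Pkp2 (chromosome 16, 16213318 to 16272712, plus strand), a plakophilin of simple epithelia, basal keratinocytes and heart muscle, was the gene with the lowest values in STAT3cKO skin. Its values were 6.07, 0.06, 0.01, 5.87 and 0 in STAT3cKO 1 to 5, against 8.96, 8.35, 6.11, 7.51 and 6.26 in WT 1 to 5. The values of STAT3cKO 2, 3 and 5 stand for no read. No STAT3cKO library reached the lowest WT library, by a margin of less than 0.1 between STAT3cKO 1 and WT 3, and such separation with STAT3cKO lower was found for 1.72% of tested genes. In estimated reads Pkp2 had 54, 0, 0, 78 and 0 in STAT3cKO 1 to 5, against 749, 414, 50, 152 and 50 in WT 1 to 5.
Of the libraries without a read, STAT3cKO 2 lacked reads of 2617 tested genes and STAT3cKO 3 of 1097. The other, STAT3cKO 5, was the deepest of the 10 and lacked reads of 438. Among tested genes, 123 (1.07%) had at least 3 STAT3cKO libraries without a read and a read in every WT library, and 34 (0.295%) showed the reverse. The fitted change of Pkp2 was −5.03 (SE 1.75, adjusted p = 0.237 with limma), and its 95% interval ran between −8.71 and −1.35. Its size depends on the pseudocount, and with one of 16 it was −2.68 (adjusted p = 0.156).

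Pkp3 (chromosome 7, 141078218 to 141090510, plus strand), a plakophilin found through all living layers of the epidermis, had values of 9.77 to 12.05 in STAT3cKO and 8.70 to 12.19 in WT skin, and the groups overlapped throughout. Its highest library was WT 4 and its lowest WT 1. With limma the change was 0.49 (SE 0.63, adjusted p = 0.798), and its 95% interval ran between −0.87 and 1.85. It was 0.07 without WT 1 (adjusted p = 0.978), 0.94 without WT 4 (adjusted p = 0.504) and 1.48 in the 4 deeper libraries alone (adjusted p = 0.172).

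Perp (chromosome 10, 18845020 to 18857073, plus strand) encodes a tetraspan membrane protein of desmosomes and is a target gene of p53 and p63. It was the most abundant of the 10 genes, at percentile 99.6 of the mean value over tested genes. Its values were 14.86, 13.88, 15.22, 14.31 and 14.29 in STAT3cKO 1 to 5, against 12.99, 12.79, 13.26, 14.25 and 13.75 in WT 1 to 5. As with Dsp, 4 STAT3cKO libraries lay above every WT library and STAT3cKO 2 lay below WT 4 alone. The means of Perp were 14.51 ± 0.53 in STAT3cKO and 13.41 ± 0.59 in WT skin (SD, n = 5 each), a change of 1.10 (SE 0.30, limma adjusted p = 0.101), or 2.15-fold with a 95% interval of 1.38 to 3.35.

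**Figure D1:**
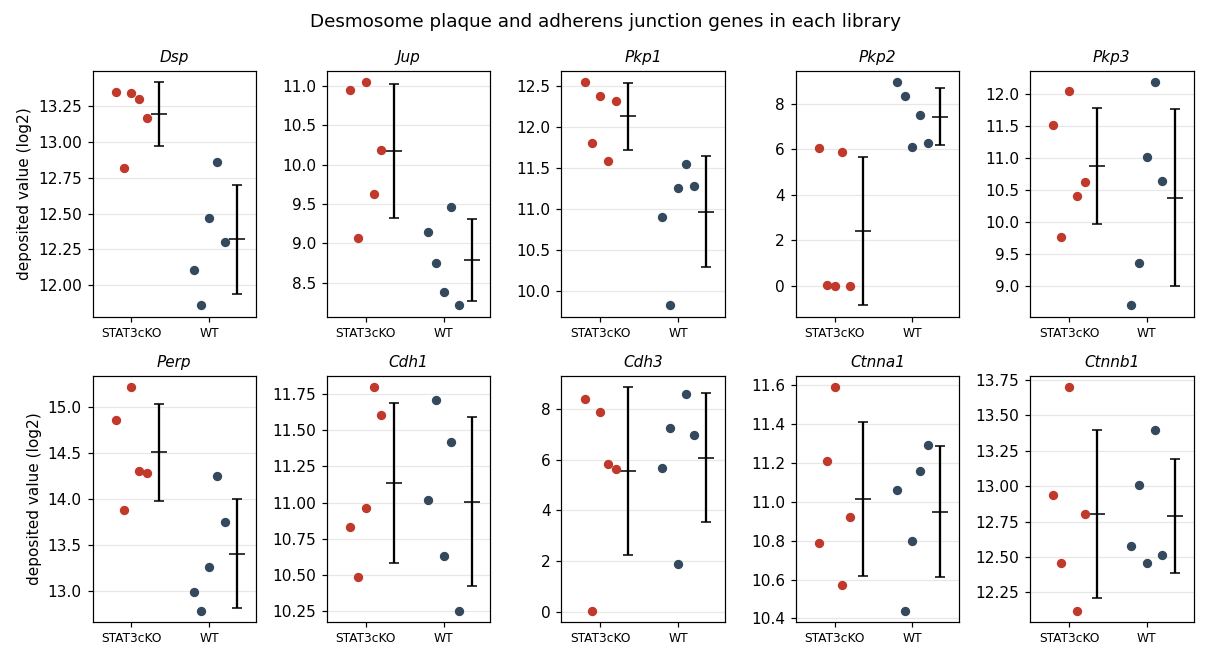
Deposited value (log2, vertical axis) of each gene in each of 5 STAT3cKO (left, red) and 5 WT (right, dark) libraries, ordered within a group by replicate number, with the group mean and SD as a bar beside the points. The vertical axis differs between panels. The groups do not overlap for Pkp1 and Pkp2, and nearly separate for Dsp, Jup and Perp.

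The classical cadherins lie next to each other on chromosome 8, both on the plus strand, with 46053 bases between the end of Cdh3 and the start of Cdh1. Cdh1 (106603351 to 106670246), E-cadherin, the cadherin of all living epidermal layers, had values of 10.83, 10.48, 10.96, 11.80 and 11.61 in STAT3cKO 1 to 5, against 11.02, 11.71, 10.63, 11.42 and 10.25 in WT 1 to 5. High and low libraries of Cdh1 occurred in both groups. The change was 0.13 (SE 0.34, limma adjusted p = 0.910), or 1.09-fold, with a 95% interval of 0.664 to 1.81.

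Cdh3 (106510891 to 106557297), P-cadherin, the cadherin of basal keratinocytes and of hair follicle matrix, was scarce and variable. It had values of 8.38, 0.06, 7.86, 5.81 and 5.62 in STAT3cKO 1 to 5, where STAT3cKO 2 held no read, against 5.67, 7.25, 1.91, 8.59 and 6.98 in WT 1 to 5, where WT 3 held 2 estimated reads. The lowest library of each group was the one with the most tested genes without a read. With limma the change was −0.53 (SE 1.78, adjusted p = 0.935), and its 95% interval ran between −4.28 and 3.22. The sign turned without STAT3cKO 2, where the change was 0.84 (adjusted p = 0.831), and without WT 4, where it was 0.10 (adjusted p = 0.990).
The 3 libraries with the most Cdh3, WT 4, STAT3cKO 1 and STAT3cKO 3, were also the 3 with the highest summed level of 18 hair matrix and shaft genes. That summed level was 15.63, 1.68, 18.92, 4.27 and 15.31 in STAT3cKO 1 to 5, against 8.28, 7.68, 11.89, 19.01 and 9.77 in WT 1 to 5 (log2 of the summed values). Among the other libraries the orders differed: STAT3cKO 5, at a summed 15.31, had 5.62 for Cdh3, and WT 2, at 7.68, had 7.25. Whether hair growth had a part in the levels of Cdh3 was not tested.

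Ctnna1 (chromosome 18, 35118859 to 35254779, plus strand), alpha-catenin, links the cadherin complex to actin. Its values were 10.79, 11.21, 11.59, 10.57 and 10.92 in STAT3cKO 1 to 5, against 11.06, 10.44, 10.80, 11.16 and 11.29 in WT 1 to 5. The groups covered nearly the same range, and the change was 0.07 (SE 0.29, limma adjusted p = 0.952), or 1.05-fold with a 95% interval of 0.685 to 1.6.

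Ctnnb1 (chromosome 9, 120929216 to 120960507, plus strand), beta-catenin, was abundant, at percentile 98.6 of the mean value. It had values of 12.94, 12.46, 13.70, 12.12 and 12.80 in STAT3cKO 1 to 5, against 12.58, 13.01, 12.46, 13.40 and 12.51 in WT 1 to 5. Both the highest and the lowest library belonged to STAT3cKO skin. The change was 0.01 (SE 0.30, limma adjusted p = 0.991), or 1.01-fold with a 95% interval of 0.651 to 1.56.
The last exons of Ctnnb1 and of Ulk4, a gene on the other strand, overlap, and no source used here states if counting took strand into account. The value of Ulk4 was 7.11 at most in any library, against at least 12.12 for Ctnnb1. Ctnna1 shares exon sequence with Lrrtm2 on the other strand, whose value was 5.99 at most. Dsp shares exon sequence with a predicted gene on the other strand. The ends of the 9 genes other than Ctnnb1 matched no other gene's transcript over 75 or more bases at 95% identity.

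**Figure D2:**
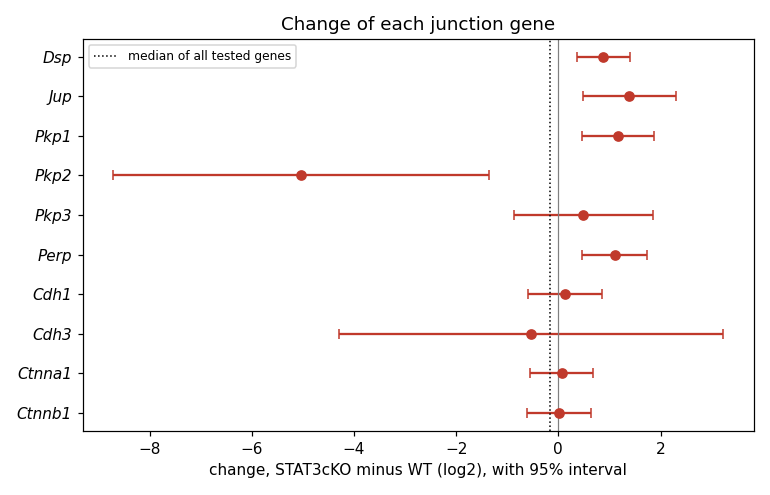
Change of each gene, STAT3cKO minus WT, on the log2 scale (horizontal axis) with its 95% interval from limma, 5 libraries in each group. The dotted line is the median change of all 11536 tested genes, −0.16. The intervals of Dsp, Jup, Pkp1 and Perp lie above 0 and that of Pkp2 below it before adjustment, and those of Pkp3, Cdh1, Cdh3, Ctnna1 and Ctnnb1 lie on both sides of 0.

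The change was positive for 8 of the 10 genes, with a median of 0.31, against 43.8% of all tested genes with a median of −0.16. Of the 8, Cdh1, Ctnna1 and Ctnnb1 lay at only 0.01 to 0.13. Their sign, and that of Pkp3, turned under some alternatives. In STAT3cKO skin the order of the group means was Perp, Dsp, Ctnnb1, Pkp1, Cdh1, Ctnna1, Pkp3, Jup, Cdh3 and Pkp2. Neighbours closer than the larger of their SDs there were Dsp and Ctnnb1, Cdh1 and Ctnna1, Ctnna1 and Pkp3, Pkp3 and Jup, and Cdh3 and Pkp2. In WT skin the order was Perp, Ctnnb1, Dsp, Cdh1, Pkp1, Ctnna1, Pkp3, Jup, Pkp2 and Cdh3. Such close neighbours there were Cdh1 and Pkp1, Pkp1 and Ctnna1, Ctnna1 and Pkp3, and Pkp2 and Cdh3.

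Differences between 2 genes, either related or partners in the same junction, were then taken within each library. That cancels whatever both genes share there, such as the scaling. It does not cancel a different share of cells that express 1 gene more than the other, and the part of that share was not tested. Of 5 such pairs 1 passed an exact 2-sided permutation test over all assignments of 5 of the 10 libraries, whose smallest p is 0.00794, after Benjamini-Hochberg adjustment over the 5 pairs. That pair was plakoglobin and beta-catenin. Jup minus Ctnnb1 was −1.99, −3.38, −2.65, −2.49 and −2.62 in STAT3cKO 1 to 5, against −3.44, −4.25, −4.08, −3.94 and −4.30 in WT 1 to 5.
The groups did not overlap, with STAT3cKO 2 and WT 1 the closest. The mean was −2.63 ± 0.50 in STAT3cKO and −4.0 ± 0.35 in WT skin (SD, n = 5 each), a difference of 1.38 (exact p = 0.00794, adjusted p = 0.0397). After quantile normalization the difference was 1.19, and the call was lost (exact p = 0.0159, adjusted p = 0.0794). With any 1 library left out it was 1.22 to 1.56, at an exact p of 0.0159 each time, which is the smallest that 4 against 5 libraries can give and could not pass over 5 pairs.

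The other 4 pairs did not pass. Dsp minus Jup averaged 3.02 ± 0.68 in STAT3cKO and 3.53 ± 0.53 in WT skin (SD, n = 5 each; exact p = 0.214, adjusted p = 0.423). The difference between the groups was −0.51. Pkp1 minus Pkp3 averaged 1.26 ± 0.65 in STAT3cKO and 0.58 ± 1.03 in WT skin (exact p = 0.254, adjusted p = 0.423). The difference of 0.68 between the groups became 1.08 without WT 1 (exact p = 0.0476, adjusted p = 0.119) and 0.37 without WT 4 (exact p = 0.476, adjusted p = 0.794). Cdh3 minus Cdh1 averaged −5.59 ± 3.15 in STAT3cKO and −4.93 ± 2.34 in WT skin (exact p = 0.683, adjusted p = 0.849). The difference was −0.66, and 0.55 without STAT3cKO 2 (exact p = 0.778, adjusted p = 0.810). Ctnna1 minus Ctnnb1 averaged −1.79 ± 0.39 in STAT3cKO and −1.84 ± 0.55 in WT skin (exact p = 0.849, adjusted p = 0.849). In these 4 pairs the libraries of the groups overlapped.

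**Figure D3:**
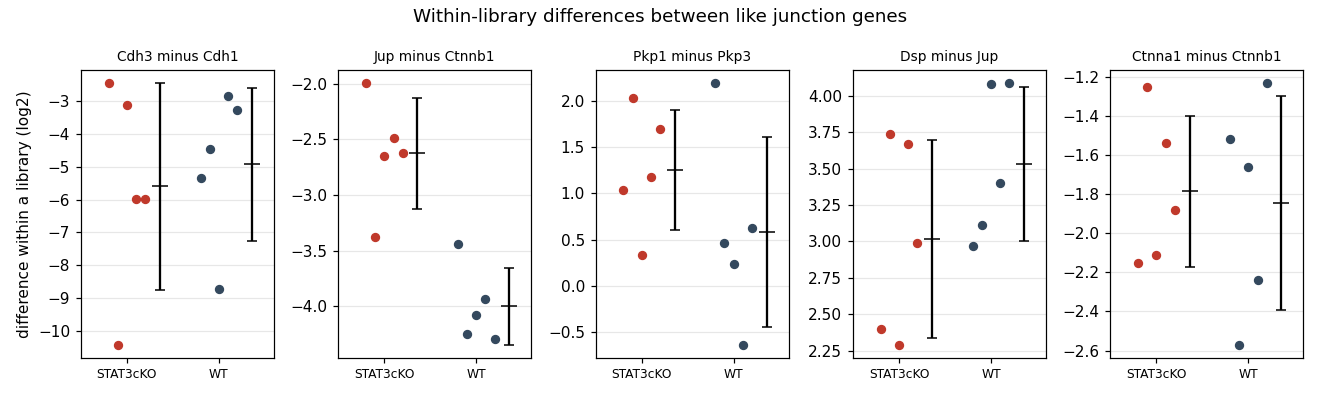
Difference between 2 genes within each library (log2, vertical axis) for 5 STAT3cKO (left, red) and 5 WT (right, dark) libraries, with the group mean and SD beside the points. The groups are apart for Jup minus Ctnnb1, at −3.38 to −1.99 in STAT3cKO and −4.30 to −3.44 in WT skin, and overlap in the other 4 pairs.

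Profiles over the 10 libraries were compared after centring each gene on its own mean, by the root mean square difference in log2 units, as a description without a test. Among the 10 genes, Dsp and Perp were each other's nearest, at 0.33, and Perp was also the nearest of the 10 to Pkp1 (0.36), Jup (0.52) and Pkp3 (0.70). Ctnna1 and Ctnnb1 were each other's nearest of the 10, at 0.43, but 329 other tested genes lay closer to Ctnna1 and 150 to Ctnnb1. That distance was larger than the spread of Ctnna1 around its own mean (0.33). Outside the 10, the nearest tested gene was Rcn1 for Dsp (0.20), Abhd17c for Jup (0.35), Kctd11 for Pkp1 (0.27), S100a16 for Pkp3 (0.46) and Sgk1 for Perp (0.30). For the adherens genes it was Rad23b for Cdh1 (0.21), Hspa4 for Ctnna1 (0.17) and Atp6v1g1 for Ctnnb1 (0.16). The genes at 0 in some libraries had no close match, since the nearest were Wrb for Pkp2 (0.97) and Rnf24 for Cdh3 (0.72). Perp was not the nearest of all genes to Dsp, as 22 tested genes lay closer, whereas 4 lay closer to Perp than Dsp did.

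The transmembrane partners of the plaque, the desmogleins, desmocollins and corneodesmosin, had 7 tested genes of 10, of which 0 passed, 6 had a positive change and the median change was 1.07. Dsg1a, a desmoglein of the upper epidermis, averaged 12.10 ± 0.24 in STAT3cKO and 11.03 ± 0.43 in WT skin (SD, n = 5 each; limma adjusted p = 0.0746). Its groups did not overlap, as for 1.71% of tested genes with STAT3cKO higher. Dsc1, a desmocollin of the upper epidermis, averaged 10.91 ± 0.30 in STAT3cKO and 9.25 ± 1.22 in WT skin (limma adjusted p = 0.108). The other 5 tested genes of the list had estimates of 2.34 for Dsg2, 1.6 for Dsg3, 0.29 for Cdsn, 0.17 for Dsc3 and −0.24 for Dsc2, at limma adjusted p-values of 0.632 to 0.974.

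Of 10 plakins and filament genes that the plaque anchors or neighbours 1 rose, 0 fell and 9 did not pass, with 8 positive and a median of 0.60. Over all tested genes 0.529% passed as higher and 0.459% as lower. The negative estimates were those of Vim, vimentin (−0.32, limma adjusted p = 0.762), and Des, desmin (−1.22, adjusted p = 0.680). The riser was Ppl, the plakin periplakin, which averaged 12.38 ± 0.42 in STAT3cKO and 10.99 ± 0.46 in WT skin (SD, n = 5 each; change 1.39, SE 0.29, limma adjusted p = 0.0273). With limma its relative Evpl, envoplakin, was at 0.59 (adjusted p = 0.657) and Plec, plectin, at 0.48 (adjusted p = 0.763). Among the keratins that desmoplakin grips, the limma estimate was 3.44 for Krt1 (adjusted p = 0.0540) and 1.48 for Krt10 (adjusted p = 0.10), both suprabasal. For the basal keratins it was 1.30 for Krt14 (adjusted p = 0.25) and 0.62 for Krt5 (adjusted p = 0.577). These 4 keratins are also among the keratinocyte markers below.

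Accessory genes of the adherens junction, such as p120-catenins, nectins, vinculin and actin linkers, had 22 tested genes of 25, of which 0 passed. The tested genes include other cadherins, Cdh2 (1.02), Cdh5 (−0.85) and Cdh11 (−1.36), and the tight junction scaffold gene Tjp1 (0.36). Cdh5 is also in the endothelial list, so these counts do not describe keratinocyte junctions alone. The change was positive for 12 of the 22, with a median of 0.20. The lowest p-values belonged to Arvcf, a relative of p120-catenin, at −1.54 (SE 0.62, adjusted p = 0.365 by limma), and to Pvrl2, nectin 2, at 1.71 (SE 0.93, adjusted p = 0.530). Ctnnd1, p120-catenin itself, stood at 0.96 (SE 0.72, adjusted p = 0.650 by limma) and Vcl, vinculin, at −0.37 (SE 0.42, adjusted p = 0.764).

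**Figure D4:**
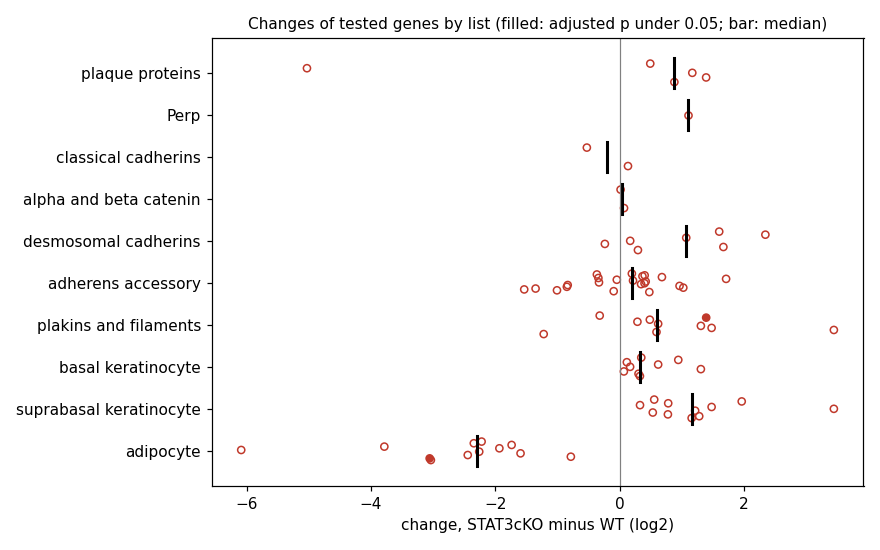
Change of each tested gene, STAT3cKO minus WT (log2, horizontal axis), by list, with the list's median as a bar and genes past an adjusted p of 0.05 filled. The desmosomal cadherins (median 1.07) and 4 of 5 plaque proteins lie on the positive side, the adherens accessory genes spread around a median of 0.20, and the adipocyte genes lie below 0.

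Whole skin mixes cell types, and for these genes fewer cells of a type cannot be told apart from less RNA per cell. The summed level of 9 basal keratinocyte markers was 14.35 to 15.78 in STAT3cKO and 13.13 to 14.99 in WT skin, and that of 11 suprabasal markers was 17.30 to 18.16 in STAT3cKO and 15.95 to 17.51 in WT skin. Of the basal markers 0 of 9 and of the suprabasal ones 0 of 11 passed, with medians of 0.32 and 1.15 and a positive difference for all 9 and all 11. The lowest p-values were those of Krt1 (3.44, SE 0.72, limma adjusted p = 0.0540) and Lor, loricrin (1.96, SE 0.44, adjusted p = 0.0618), among the suprabasal and Krt14 (1.30, SE 0.45, adjusted p = 0.25) and Lamb3 (0.94, SE 0.58, adjusted p = 0.568) among the basal markers. The summed level of 12 adipocyte markers was 15.46 to 17.92 in STAT3cKO and 16.87 to 19.32 in WT skin. Of these Car3, a muscle and fat carbonic anhydrase, fell (−3.06, SE 0.56, limma adjusted p = 0.0209), 0 rose and 11 did not pass, with a median of −2.31. Over all tested genes 0.459% passed as lower. No marker of these 3 lists was without a read in all 10 libraries, although 1 basal, 1 suprabasal and 3 adipocyte markers lacked a read in some library.
Set relative to the mean of the basal markers in each library, the limma estimate for Dsp was 0.41 (SE 0.56, adjusted p = 0.816). It was 0.70 for Pkp1 (adjusted p = 0.680), 0.64 for Perp (adjusted p = 0.694) and 0.92 for Jup (adjusted p = 0.639). That reference is itself noisy: it includes Lama3, without a read in 1 library of each group, and the SE of Dsp was 0.25 as reported. On that scale Ctnnb1 had a change of −0.45 and Cdh1 one of −0.33, and the median of all genes was −0.62. The part of the make-up of the skin in these values was not tested.

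The calls of Dsp and Perp turned on 1 library and on the processing. Without WT 4 both Dsp (change 1.01, limma adjusted p = 0.0393) and Perp (1.31, adjusted p = 0.0204) passed the test, so that 2 of the 10 genes were called, and 207 of all tested genes were called instead of 114. WT 4 held the highest WT values of Dsp, Pkp1, Pkp3, Jup, Perp, Cdh3 and Ctnnb1, and also the most hair matrix RNA of the 10 libraries. Without any 1 of the other 9 libraries 0 of the 10 genes passed, and without both STAT3cKO 2 and WT 3 also 0. Quantile normalization called Dsp (1.06, limma adjusted p = 0.0367) and Perp (1.35, adjusted p = 0.0219), and 181 of all tested genes. Weighting by estimated reads also called both (Dsp 1.01, limma adjusted p = 0.042, and Perp 1.24, adjusted p = 0.0385), and 163 of all tested genes. Over the alternatives the adjusted p ranged from 0.0367 to 0.816 for Dsp and from 0.0204 to 0.747 for Perp.

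**Figure D5:**
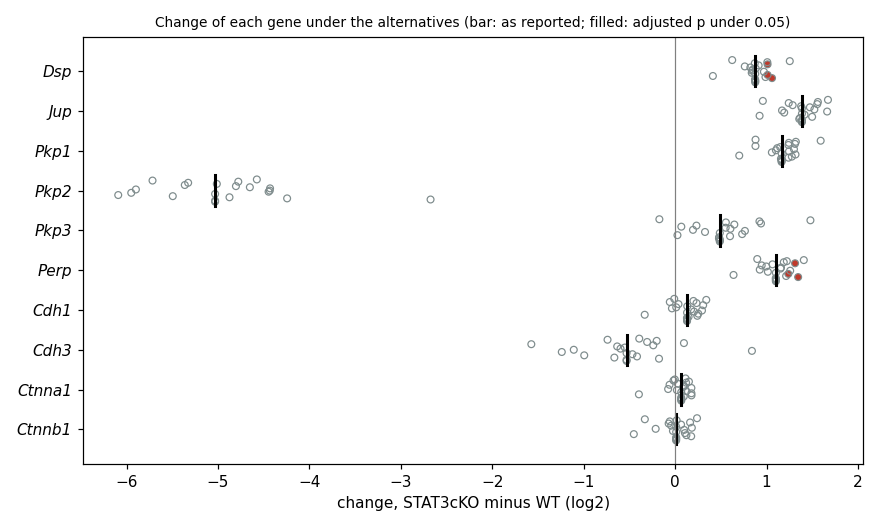
Change of each gene, STAT3cKO minus WT (log2, horizontal axis), under each alternative processing or left-out library (points) and as reported (bar). Filled points passed an adjusted p of 0.05. Dsp and Perp passed in 3 alternatives each, the changes of Dsp, Jup, Pkp1 and Perp stayed above 0 and that of Pkp2 below 0 in all that were run, and those of Pkp3, Cdh1, Cdh3, Ctnna1 and Ctnnb1 took both signs.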

How the data were processed

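RNA of whole skin was sequenced in 10 libraries. Per the submitters' processing notes, reads were handled with Bowtie2 and bedtools on mm10. Versions, annotation, strand, scaling and duplicate handling were not stated in any source used here. The authors deposited 1 log2 value per gene symbol and library, which behaves as log2 of scaled reads plus 1: undoing the log gave sums of 9690000 to 11400000. Among values of up to 20 reads, 88.1 to 100% lay within 0.15 of a whole read, which gave the estimated depths. Depth limits only counting error, and values below 0.5 of a read count as no read.

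A linear model with group as the only term was fitted to all 11536 genes with a value of at least 5 in at least 5 libraries, with limma 3.58.1 in R 4.3.3 (mean trend, robust moderation), and p-values were Benjamini-Hochberg adjusted over them. Differences within a library were tested by exact permutation in scipy 1.17.1. Intervals are at 95%. The limma fit was tested on simulated data, with changes set only in genes of higher mean value than Pkp2 and Cdh3. The exact test was checked on values with a known answer. Positions come from GENCODE M21 on mm10. The text names the 10 genes, called members of other lists or the 2 of lowest p, and nearest profiles, and other genes named were chosen after their values were seen. The 10 genes and all lists were chosen with earlier results of these data known. Alternatives were other models, filters, pseudocounts, scalings, left-out libraries, depth classes and a replicate block.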

Additional observations from a re-analysis of the deposited data

How the results depend on the processing

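Under 22 alternatives the changes of Dsp, Jup, Pkp1 and Perp kept their sign (21 alternatives for Pkp2, which with Cdh3 was left out by the filter on a mean of at least 8). Of the 10 genes 2 were called instead of 0 under quantile normalization and under read weights, and 0 to 2 with 1 library left out. Over all tested genes 114 were called as reported, 44 without trend or robust estimation, 175 with a pseudocount of 16, 181 after quantile normalization, 51 centred on basal genes, 174 in the 4 deeper and 16 in the 6 shallower libraries, and 61 to 207 with 1 library left out (207 without WT 4, 61 without STAT3cKO 1, 62 without WT 1 or WT 2, 72 without STAT3cKO 5). Relative to the values as reported, the median of all genes moved by 0.15 after quantile normalization, 0.11 after scaling to equal totals, 0.13 with read weights and −0.46 centred on basal genes. Calls were 61 higher and 53 lower as reported, 76 and 39 after scaling to equal totals, 109 and 54 with read weights, and 11 and 40 centred on basal genes.

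The sign of Pkp3, Cdh1, Cdh3, Ctnna1 and Ctnnb1 turned under some alternatives. Centred on basal genes, Cdh1 was at −0.33, Ctnna1 at −0.40 and Ctnnb1 at −0.45. In the 4 deeper libraries Ctnna1 was at −0.0030 and Ctnnb1 at −0.33, and Dsp minus Jup was at 0.29. In the 6 shallower ones Pkp3 was at −0.17 and Cdh1 at −0.0093. Without both STAT3cKO 2 and WT 3, Ctnna1 was at −0.018. With 1 library left out Cdh1 ranged from −0.058 to 0.31, Cdh3 from −1.57 to 0.84, Ctnna1 from −0.076 to 0.18 and Ctnnb1 from −0.21 to 0.18. After quantile normalization Ctnna1 minus Ctnnb1 was at −0.081, and Jup minus Ctnnb1 was at 1.19 and no longer passed. The causes were not tested.

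Same-numbered libraries of the groups did not deviate together (r of their deviations across genes −0.155 to 0.016). That cannot settle whether the numbers pair the samples. No label says that they do, and the libraries were treated as unpaired. With the replicate block 66 genes and 0 of the 10 were called, and Jup minus Ctnnb1 stayed at 1.38, with an exact sign-flip p of 0.0625, the smallest that 5 pairs can give.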

Other observations

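Genes that beta-catenin, p53 and p63 act through, and the factors that set cadherin expression, were followed as lists. Of 15 Wnt target genes 8 were tested and 0 passed, with 6 positive changes and a median of 0.81. Axin2, a feedback inhibitor that Wnt signalling induces, averaged 3.80 ± 3.51 in STAT3cKO, where 2 libraries held no read, and 6.80 ± 1.16 in WT skin (SD, n = 5 each; change −3.0, SE 1.75, limma adjusted p = 0.551). Ccnd1, cyclin D1, averaged 10.46 ± 0.52 in STAT3cKO and 9.60 ± 0.80 in WT skin (change 0.86, SE 0.40, limma adjusted p = 0.452). Of 12 tested genes of the p53 and p63 list 0 passed, with 7 positive and a median of 0.24. Ccng1, cyclin G1, was at −0.73 (SE 0.46, adjusted p = 0.578 by limma) and Sesn1, sestrin 1, at 0.87 (SE 0.39, adjusted p = 0.426).

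Of 9 tested genes among transcription factors and splicing regulators of the epithelial state and its loss 0 passed, with 6 positive and a median of 1.07. Because the list pools factors of opposite effect, its median has no single direction. Grhl1, a grainyhead factor that activates desmosomal cadherin genes, averaged 11.18 ± 0.76 in STAT3cKO and 10.10 ± 0.80 in WT skin (SD, n = 5 each; change 1.07, SE 0.42, limma adjusted p = 0.334). Esrp1, an epithelial splicing regulator, averaged 10.55 ± 1.12 in STAT3cKO and 9.27 ± 0.95 in WT skin (change 1.28, SE 0.54, limma adjusted p = 0.401). Snai2, a repressor of E-cadherin, had a change of 1.07 (SE 0.87, limma adjusted p = 0.671). Of the other factors of that kind Zeb1 was at 0.66, whereas Zeb2 was at −0.08, Twist1 at −0.58 and Twist2 at −0.92.

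Among 10 tested fibroblast markers 1 fell, Dpt, which encodes dermatopontin (−1.53, SE 0.33, adjusted p = 0.0287 by limma), and the median was −0.76. Skeletal muscle (10 tested, median −1.52), macrophage (9 tested, median −0.62), endothelial (9 tested, median 0.17), melanocyte (4 tested, median 0.61) and hair matrix and shaft genes (9 tested, median 2.16) had 0 calls, beside 0.988% over all tested genes. The lowest p-values in these lists by limma were those of Actn3 (−4.30, adjusted p = 0.365) and Ckm (−2.81, adjusted p = 0.384) of muscle, and of Lyz2 (−2.0, adjusted p = 0.10) and Adgre1 (−3.12, adjusted p = 0.446) of macrophages. In the endothelial list they were Tek (2.43, adjusted p = 0.546) and Tie1 (−2.15, adjusted p = 0.663), in the melanocyte list Tyrp1 (2.63, adjusted p = 0.700) and Dct (1.06, adjusted p = 0.764), and in the hair list Krt35 (2.27, adjusted p = 0.798) and Hoxc13 (1.61, adjusted p = 0.805).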
